A study of Homo sapiens with 8 samples.

Results

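The genes described here are 34 genes of the interferon response and of antigen presentation, chosen by name and found in the deposited expression table among 25369 listed genes. All 34 were found. They are 3 sensors of viral nucleic acid, 5 transcription factors, 15 antiviral effectors, 7 other interferon-induced genes and 4 genes of antigen presentation. Their RNA was measured by sequencing in EPC2-hTERT, a line of human esophageal epithelial cells kept dividing by added telomerase, which form layers when grown at an air-liquid interface. Every culture had spent 4 days exposed to air. One group received DMSO alone (vehicle) and the other 1 mM dimethyloxalylglycine (DMOG) for 18 h, with 4 libraries in each. DMOG is an analog of 2-oxoglutarate that blocks prolyl hydroxylases and so stabilizes hypoxia-inducible factor (HIF). All libraries come from 1 immortalized line, and whether replicates were separate cultures is not in the labels, so the p-values describe the spread among libraries, which may be technical.

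Epithelial cells answer viral nucleic acid by making interferons. Interferons bind receptors that activate Janus kinases, which phosphorylate STAT proteins. STAT2 and IRF9 are subunits of the factor ISGF3, which binds interferon-stimulated response elements in promoters of antiviral genes. Gamma-activated sites are the other main element through which interferons act. The induced proteins block virus entry, translation and release, and some of them load peptides onto HLA class I molecules for display to T cells. A low level of these genes is also kept in cells that meet no virus.

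Libraries held 31245695 to 39931833 reads in genes. Levels are given as scaled RPKM, the deposited RPKM (reads per kilobase of gene, scaled to library depth) divided by a median-ratio factor for each library, which sets the median gene at the same level. Squamous markers were high in every library (9 of 9 found, summed 17910 to 30550 scaled RPKM with vehicle and 24200 to 33820 with DMOG). Of 16 leukocyte markers, 14 were below 1 scaled RPKM in every library, and MS4A1, CD207, CLEC4C, IL3RA and NKG7 were among those at 0 throughout. The leukocyte sum was 40.2 to 71.1 with vehicle and 59.7 to 102 with DMOG, almost all of it CD68, a lysosomal protein. CD14 lay at 1.11 to 1.84 with vehicle and at 0.182 to 0.297 in DMOG 1, 3 and 4. Fibroblast markers were below 1 in every library (7 of 7). Of 6 endothelial markers 5 were below 1, VWF excepted. The part of these markers in the results was not tested.

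The library labelled DMOG 2 stood apart from the other DMOG libraries. The HIF target ENO2 was at 0.795 to 1.71 scaled RPKM with vehicle, at 77.1, 25.6 and 186 in DMOG 1, 3 and 4, and at 1.84 in the library labelled DMOG 2. EGLN3 was at 4.89 to 12.3 with vehicle, 38.5 to 396 in DMOG 1, 3 and 4, and 9.46 in that library. PGK1 (109.6) and BNIP3 (20.6) also lay within their vehicle ranges there. Above every vehicle library, but below DMOG 1, 3 and 4, were NDUFA4L2 at 45.8 (vehicle at most 21.2), CA9 at 2.44 (at most 1.295) and ALDOA at 329.5 (at most 260.7), as was ENO2. The comparison that the authors deposited used replicates 1, 3 and 4 of each group. Results are therefore given over all 8 libraries and over those 6. Why replicate 2 was left out is not stated, and the choice may rest on the values measured, for which p-values over 6 libraries make no allowance.

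Promoters of the members are shown here because the letters of the interferon-stimulated response element are what many of the members share. RefSeq windows of 300 bases (GRCh38.p14, 250 before and 50 from the transcription start, counted as base 0) were matched for 27 of the 34 members, 1 of them by a synonym. The core searched for was GAAA, any 2 bases, then GAAA, on both strands. It was present for 17 of the 27 (63%), against 4.38% of the 27305 genes with a window. The lines below give the stretch around the matches, 5′ to 3′ on the gene's strand, with every base of a match in capitals.
ISG15 (chr1:1013364-1013419, plus): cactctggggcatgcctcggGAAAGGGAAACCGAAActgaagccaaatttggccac
IFI6 (chr1:27672256-27672368, minus): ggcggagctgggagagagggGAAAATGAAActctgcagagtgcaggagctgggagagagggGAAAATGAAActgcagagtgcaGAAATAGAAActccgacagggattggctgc
IFITM1 (chr11:313980-314043, plus): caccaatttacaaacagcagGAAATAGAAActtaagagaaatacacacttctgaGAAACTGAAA
IFITM3 (chr11:320866-320932, minus): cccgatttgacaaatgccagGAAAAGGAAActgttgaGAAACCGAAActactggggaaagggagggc
OAS3 (chr12:112938311-112938473, plus): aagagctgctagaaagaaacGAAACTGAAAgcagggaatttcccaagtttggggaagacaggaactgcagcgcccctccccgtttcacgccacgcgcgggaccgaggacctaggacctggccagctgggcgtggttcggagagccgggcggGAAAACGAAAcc
RSAD2 (chr2:6877612-6877661, plus): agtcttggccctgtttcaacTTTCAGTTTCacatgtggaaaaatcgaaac
IFIT1 (chr10:89392487-89392549, plus): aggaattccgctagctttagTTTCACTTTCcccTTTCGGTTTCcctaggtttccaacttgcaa
B2M (chr15:44711353-44711408, plus): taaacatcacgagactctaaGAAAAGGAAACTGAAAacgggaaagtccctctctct
In ISG15 and B2M the capitals hold a pair of overlapping matches, IFI6 has 3 separate matches, and in RSAD2 and IFIT1 the match lies on the opposite strand.

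The gamma-activated site core TTCNNNGAA, which reads the same on both strands, was present for 9 of the 27 members (33.3%) and for 9.38% of genes. Both cores were present for MX1, BST2, IFITM1, IFI27 and TAP1. The motif ACGTG, a form of the HIF response element core (A or G, then CGTG), was present for 5 of the 27 members (18.5%) and for 24.9% of genes. The form GCGTG was not searched for. No exact match to the interferon-stimulated response element core lay in the windows of IFI16, XAF1, HLA-B or HLA-C. Elements that differ from the searched letters were not looked for, so their absence is not shown. The 250 bases before the HLA-B and HLA-C starts are shown because HLA-B is the member called higher with DMOG in the 6-library comparison and HLA-C is its close relative. Capitals mark the 3 runs of at least 20 bases (25, 23 and 22 bases) that both windows share, and 227 of the 250 bases fell in aligned identical blocks.
HLA-B (chr6:31357180-31357429, minus): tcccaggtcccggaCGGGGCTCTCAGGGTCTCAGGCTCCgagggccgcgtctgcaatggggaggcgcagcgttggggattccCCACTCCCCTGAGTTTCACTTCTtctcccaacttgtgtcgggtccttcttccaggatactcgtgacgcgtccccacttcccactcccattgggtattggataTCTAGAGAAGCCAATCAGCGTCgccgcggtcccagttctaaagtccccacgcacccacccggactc
HLA-C (chr6:31272093-31272342, minus): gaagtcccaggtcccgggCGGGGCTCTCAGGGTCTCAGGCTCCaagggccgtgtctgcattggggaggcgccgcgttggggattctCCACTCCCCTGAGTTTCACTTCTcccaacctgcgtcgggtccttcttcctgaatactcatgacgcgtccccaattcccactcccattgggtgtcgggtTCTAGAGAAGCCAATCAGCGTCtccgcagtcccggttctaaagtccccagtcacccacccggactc
These are reference sequences. HLA promoters differ between people, and the alleles of this line were not analysed here.

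Over the 6 libraries, fitted with the group as the only term, the DNA sensor IFI16 and the apoptosis factor XAF1 fell and the class I heavy chain HLA-B rose, and the other 23 tested members did not pass the test. In bulk RNA, fewer cells that express a gene and less RNA per cell cannot be told apart. Of the 34 members, 26 passed the filter on low values (an RPKM of at least 1 in at least 4 of the 8 libraries), as 11122 genes did, and were tested by limma with Benjamini-Hochberg adjustment over all genes. With 1 of 26 members higher, against 13.7% of all genes tested, and 2 of 26 lower, against 16.1% in that fit, neither share stood above that of genes in general. With the replicate number as a block, calls went from 3 to 10 of the 26, with 8 lower against 21.0% of all genes and 2 higher against 19.6%. The median log2 fold change (DMOG minus vehicle, on the log2(scaled RPKM + 1) scale) was -0.11 over the tested members and 0.0 over all genes. Estimates were below 0 for 19 of the 26 and above 0 for 7. With RPKM as deposited, the median of all genes moved to -0.258 and that of the members to -0.363, and 682 genes were called higher and 3836 lower, in place of 1526 and 1792.

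Over all 8 libraries limma called no member and no gene (0%) in either direction. At an unadjusted p under 0.05 there were 1556 genes higher and 1813 lower, among them IRF9 and HLA-B higher and IFI16 and XAF1 lower. The smallest adjusted p of a member was 0.119, for IFI16. The vehicle and DMOG values overlapped for every tested member, where 5.04% of all genes lay wholly higher with DMOG and 7.33% wholly lower. The median member estimate was 0.02, with a range from -1.01 for IFI16 to 0.44 for OASL. Without the library labelled DMOG 2, the other 7 libraries gave the same 3 calls as the 6, HLA-B higher and IFI16 and XAF1 lower.

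**Figure D1:**
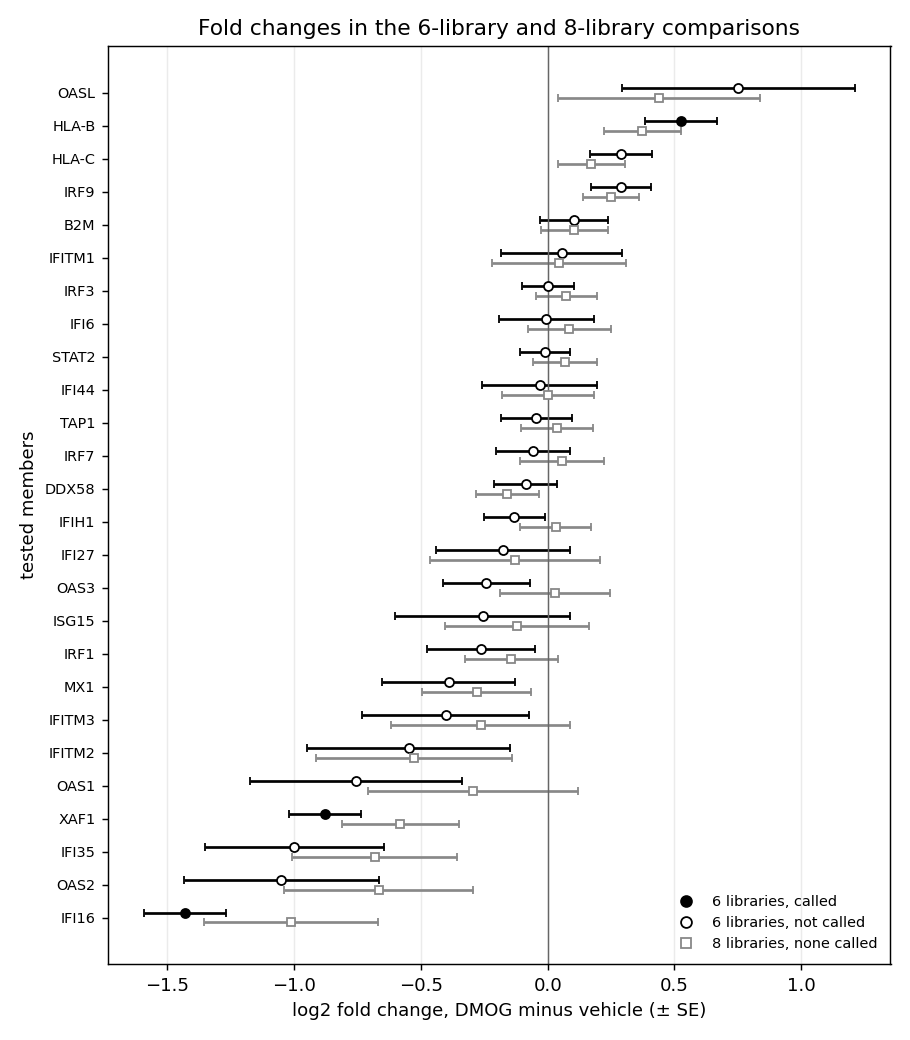
Log2 fold change (DMOG minus vehicle, horizontal axis) with its standard error for the 26 tested members (vertical axis), over 6 libraries (circles, filled where called) and 8 libraries (squares). Only IFI16, XAF1 and HLA-B are filled, and the 8-library estimates of those 3 lie closer to 0.

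Among the sensors, IFI16 (chr1:158979682-159024945, hg19), a nuclear protein that binds foreign DNA, had the lowest 6-library estimate of any tested member. This ranking holds on the log2(scaled RPKM + 1) scale, which understates changes at low levels. By limma-voom on recovered reads, XAF1 (-1.67), OAS2 (-1.64) and IFI35 (-1.51) lay lower than IFI16 (-1.48). IFI16 was at 45.2, 42.4, 41.3 and 50.0 scaled RPKM in vehicle 1 to 4. In DMOG 1 to 4 it was at 16, 50.0, 20.3 and 13.2. DMOG 1, 3 and 4 lay well below every vehicle library. The library labelled DMOG 2 (49.98) lay just above the highest vehicle value (49.95, vehicle 4). Over the 6 libraries the means were 45.5 ± 4.33 with vehicle and 16.5 ± 3.56 with DMOG (SD, n = 3), a log2 fold change of -1.43 ± 0.16 (SE, adjusted p = 0.00441, limma). Over all 8 it was -1.01 ± 0.34 (adjusted p = 0.119). The listed span of IFI16 overlaps that of SRGAP2D on the same strand.

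The RNA sensors DDX58 (RIG-I) and IFIH1 (MDA5), helicases that recognize viral RNA in the cytosol, were not called in either comparison. DDX58 lay between 0.828 and 1.72 scaled RPKM in all 8 libraries, with 120 to 285 reads. IFIH1 was at 4.09 to 6.04 with vehicle and 4.70 to 6.25 with DMOG, so that its groups overlapped almost entirely. With RPKM as deposited IFIH1 was called lower over the 6 libraries.

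None of the 5 transcription factors was called, and their 6-library estimates ran from IRF1 at the low end to IRF9 at the high end. IRF3, which switches on interferon genes once phosphorylated, was at 18.4 to 25.5 scaled RPKM with vehicle and 22.5 to 25.3 with DMOG. STAT2, the ISGF3 subunit that carries the transactivation domain, was at 8.14 to 11.4 and 10.2 to 12.1. IRF7, the factor that amplifies the interferon response, was at 9.53 to 17.0 and 12.2 to 15.4. IRF1 was at 3.04 to 4.14 and 1.89 to 3.88, lowest in DMOG 4. IRF3 overlaps BCL2L12 on the opposite strand, and the sources used here do not say whether reads were counted by strand.

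IRF9, the DNA-binding subunit of ISGF3 (chr14:24630422-24635774, hg19), was at 15.9, 16.5, 18.5 and 15.4 scaled RPKM in vehicle 1 to 4. In DMOG 1 to 4 it was at 20.5, 18.0, 22.5 and 18.7. Each DMOG library stood above the vehicle library of its own number, by ratios of 1.29, 1.09, 1.22 and 1.21. The lowest DMOG value lay under the highest vehicle value, so the groups overlapped over 8 libraries, while over 6 they did not. The 6-library log2 fold change of 0.29 ± 0.12 was not called (adjusted p = 0.0981). With RPKM as deposited it was 0.00189 (adjusted p = 0.992).

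**Figure D2:**
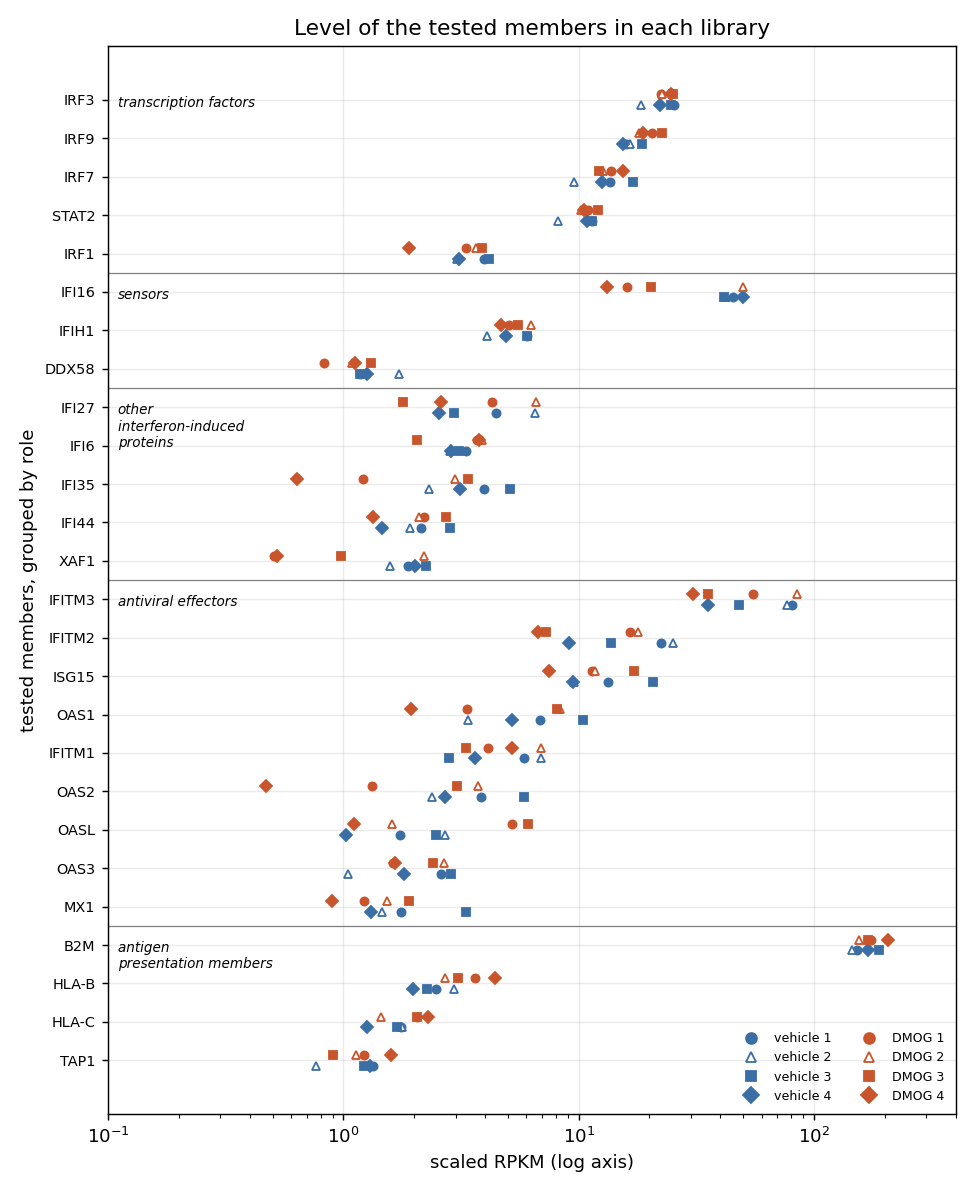
Level of the 26 tested members in scaled RPKM (log axis) in each of the 8 libraries, grouped by role, with vehicle in blue, DMOG in orange and replicate 2 of each group open. DMOG 1, 3 and 4 stand clear of vehicle for IFI16 and XAF1, and B2M is the member of highest level, while levels of HLA-B, HLA-C and TAP1 are understated because their listed lengths add several positions.

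Of the 15 antiviral effectors 9 were tested and none was called over the 6 libraries, with a median log2 fold change of -0.39 and 7 of 9 estimates below 0. The oligoadenylate synthetases OAS1, OAS2 and OAS3 make the small molecule that activates RNase L. OAS2 (chr12:113416274-113449528, hg19) was at 3.85, 2.38, 5.84 and 2.71 scaled RPKM in vehicle 1 to 4 and at 1.33, 3.74, 3.05 and 0.468 in DMOG 1 to 4. DMOG 3 fell inside the vehicle range and DMOG 4 far under it. Its estimate of -1.05 ± 0.38 was not called (adjusted p = 0.0761), and without DMOG 3 it was (-1.43, adjusted p = 0.0138).

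OAS1 (chr12:113344739-113357712, hg19) was at 6.88, 3.38, 10.4 and 5.20 scaled RPKM in vehicle 1 to 4. In DMOG 1 to 4 it was at 3.35, 8.29, 8.09 and 1.95, so the groups overlapped widely. Its 6-library estimate was -0.76 ± 0.42 (adjusted p = 0.198). OAS3 was at 1.05 to 2.86 with vehicle and 1.62 to 2.67 with DMOG. OASL, a relative that lacks the synthetase activity and enhances RIG-I signalling, had the highest estimate of any member, 0.75 ± 0.46 (adjusted p = 0.241). It was at 1.73, 2.70, 2.48 and 1.02 with vehicle and at 5.20, 1.60, 6.08 and 1.11 with DMOG, high in DMOG 1 and 3 alone, and was called without DMOG 4 (adjusted p = 0.0143).

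MX1, a dynamin-like GTPase that traps viral nucleocapsids, was at 1.76, 1.45, 3.31 and 1.31 scaled RPKM with vehicle and at 1.23, 1.53, 1.90 and 0.892 with DMOG. Its estimate was -0.39 ± 0.26 (adjusted p = 0.282). ISG15, a ubiquitin-like protein that is joined to other proteins, was at 9.45 to 20.7 with vehicle and 7.47 to 17.3 with DMOG. The groups overlapped for both genes.

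The IFITM genes lie side by side on chromosome 11 and encode membrane proteins that block fusion of entering viruses. IFITM3 (chr11:319673-320914, hg19) was the member of the next highest mean level after B2M, at 80.7, 76.6, 48.2 and 35.6 scaled RPKM in vehicle 1 to 4 and 55.1, 84.4, 35.3 and 30.6 in DMOG 1 to 4. IFITM2 (chr11:308107-309410, hg19) was at 22.5, 25.3, 13.7 and 9.08 with vehicle and 16.6, 17.9, 7.24 and 6.71 with DMOG. IFITM1 (chr11:313991-315272, hg19) was at 5.84, 6.94, 2.82 and 3.63 with vehicle and 4.12, 6.92, 3.31 and 5.19 with DMOG. For IFITM2 and IFITM3, replicates 1 and 2 were high and replicates 3 and 4 low in both groups, and DMOG lay under vehicle in pairs 1, 3 and 4.

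Over 6 libraries the estimates were -0.55 ± 0.40 for IFITM2 (adjusted p = 0.322), -0.40 ± 0.33 for IFITM3 (adjusted p = 0.371) and 0.06 ± 0.24 for IFITM1 (adjusted p = 0.870). The sign for IFITM1 turned with RPKM as deposited (-0.19). The 3 genes are close relatives, and reads that match more than 1 of them could have been split between them.

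Same-numbered libraries deviated together in the 6-library comparison, and fitting the replicate number as a block changed the calls. In that fit 2 members were higher and 8 lower. The higher members were HLA-B (adjusted p = 0.0367) and IRF9 (0.0472). The lower members were XAF1 (0.00829), OAS2 (0.00899), IFI35 (0.0151), OAS1 (0.0211), IFITM2 (0.0233), IFITM3 (0.0301), MX1 (0.0437) and IFI16 (0.00797). The labels do not say what a shared number stands for, and over all 8 libraries the block gave no call.

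By the values themselves, 12 of 26 tested members were lower with DMOG in each of pairs 1, 3 and 4, where 36.9% of all genes were. They were IFIH1, IFI16, IRF1, MX1, OAS1, OAS2, OAS3, ISG15, IFITM2, IFITM3, IFI35 and XAF1. All but IFITM2 were higher with DMOG in pair 2. The members higher in each of pairs 1, 3 and 4 were IRF9, OASL, HLA-B and HLA-C, 4 of 26 against 36.6% of all genes. In pair 2 the tested members were higher with DMOG for 20 of 26, and the share of all genes was not counted. Vehicle 2 had the lowest value of any library for 7 tested members (16.7% of all genes). It had the highest for 3 (18.2% of all genes). The part of the vehicle 2 values in the count of 20 was not tested.

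**Figure D3:**
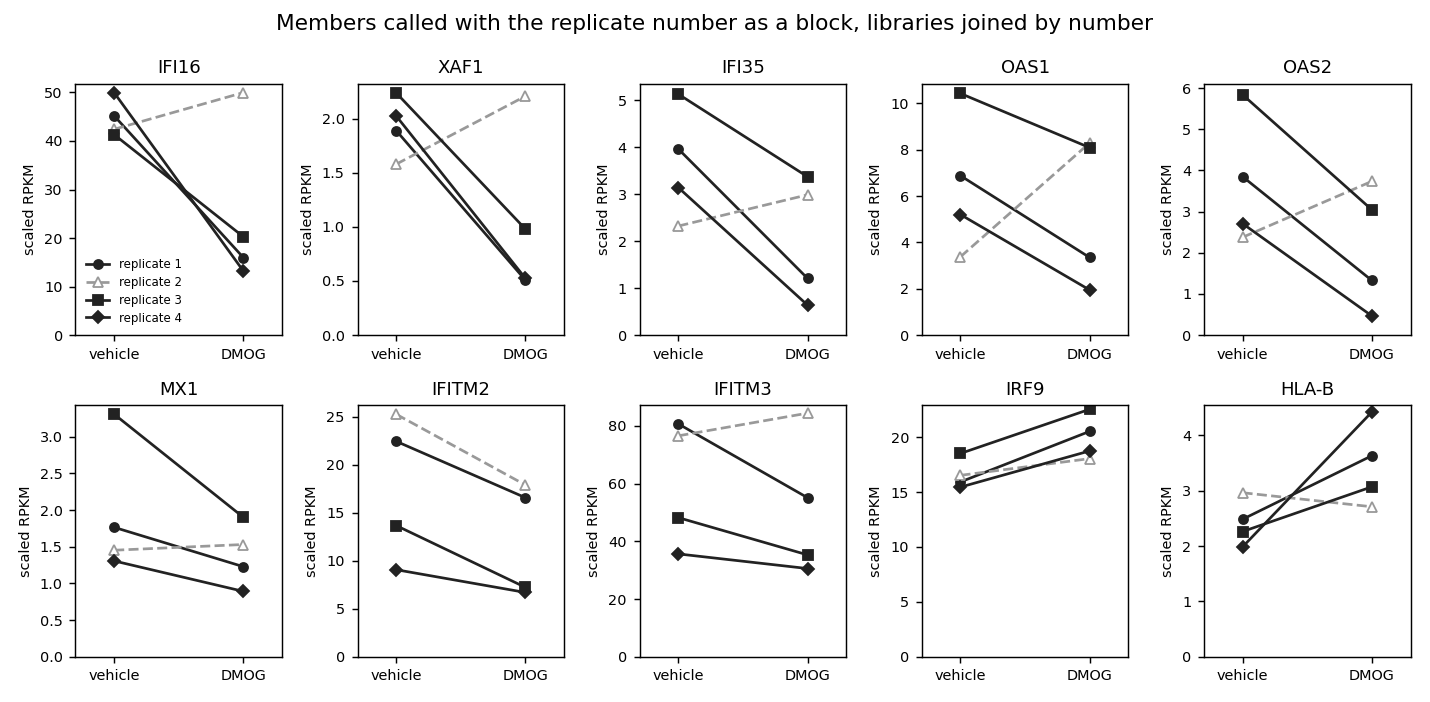
Scaled RPKM with vehicle and DMOG for the 10 members called in the fit with the replicate number as a block, libraries joined by number, with number 2 dashed and grey. Lines 1, 3 and 4 run the same way in every panel, and the dashed line runs the other way except for IFITM2 and IRF9.

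XAF1, an interferon-induced inhibitor of the apoptosis inhibitor XIAP (chr17:6659156-6678964, hg19), fell. It was at 1.89, 1.58, 2.24 and 2.02 scaled RPKM in vehicle 1 to 4 and at 0.507, 2.21, 0.979 and 0.524 in DMOG 1 to 4. DMOG 1, 3 and 4 lay below all vehicle libraries, from 50 to 106 reads against 199 to 345, and the library labelled DMOG 2 lay inside the vehicle range. Over 6 libraries the means were 2.05 ± 0.176 and 0.670 ± 0.268 (SD, n = 3) and the log2 fold change was -0.88 ± 0.14 (adjusted p = 0.00836). Over 8 libraries it was -0.58 ± 0.23 (adjusted p = 0.142). At these low levels the scale understates the change, and with a pseudocount of 0.1 the 6-library value was -1.53.

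IFI16 and XAF1 were the members with DMOG values wholly under vehicle over the 6 libraries (26.8% of all genes), and IRF9, HLA-B and HLA-C those wholly above (24.5%). IFI35, which forms a complex with the interferon-induced protein NMI, was at 3.96, 2.32, 5.13 and 3.14 scaled RPKM with vehicle and 1.21, 2.99, 3.37 and 0.638 with DMOG. DMOG 3 overlapped vehicle 4, and the estimate of -1.0 ± 0.35 was not called (adjusted p = 0.0693). It was called without DMOG 3 (adjusted p = 0.0044) and with RPKM as deposited (adjusted p = 0.0311). The other tested members of this role lay at similar levels in both groups. IFI6 was at 2.84 to 3.31 with vehicle and 2.06 to 3.89 with DMOG, IFI27 at 2.54 to 6.53 and 1.80 to 6.57, and IFI44 at 1.46 to 2.85 and 1.34 to 2.73.

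Of the antigen presentation members, B2M, the light chain of every class I molecule (chr15:45003685-45010357, hg19), had the highest level of all 34. It was at 152, 146, 190 and 169 scaled RPKM in vehicle 1 to 4 and 175, 156, 169 and 207 in DMOG 1 to 4. The groups overlapped, and the estimate was 0.10 ± 0.13 (adjusted p = 0.574), or -0.20 with RPKM as deposited. TAP1, a subunit of the pump that carries peptides into the endoplasmic reticulum, was at 0.763 to 1.34 with vehicle and 0.902 to 1.60 with DMOG. Its length was summed over 8 listed positions, and per position it was at 6.11 to 10.7 and 7.21 to 12.8.

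HLA-B, a heavy chain that presents peptides (chr6:31321649-31324989, hg19), rose over the 6 libraries. It was at 2.48, 2.96, 2.26 and 1.99 scaled RPKM in vehicle 1 to 4 and at 3.63, 2.71, 3.07 and 4.42 in DMOG 1 to 4. DMOG 1, 3 and 4 lay above all vehicle libraries and the library labelled DMOG 2 among them. The 6-library means were 2.24 ± 0.25 and 3.71 ± 0.678 (SD, n = 3), a log2 fold change of 0.53 ± 0.14 (adjusted p = 0.0332). Over 8 libraries it was 0.37 ± 0.15 (adjusted p = 0.144). The call was lost with RPKM as deposited (0.30, adjusted p = 0.106), without the filter (adjusted p = 0.0564) and when vehicle 1, 3 or 4 or DMOG 1 or 4 was left out (adjusted p = 0.0552 to 0.121).

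HLA-C (chr6:31236526-31239913, hg19) was at 1.76, 1.78, 1.69 and 1.26 scaled RPKM with vehicle and 2.06, 1.44, 2.05 and 2.30 with DMOG. Its DMOG 1, 3 and 4 values again lay above the vehicle values, but the estimate of 0.29 ± 0.12 was not called (adjusted p = 0.112). The table divides the reads of HLA-B by a length of 9432 bases summed over 6 listed positions, and those of HLA-C by 11053 over 7. Per position, HLA-B was at 11.9 to 17.8 with vehicle and 16.3 to 26.5 with DMOG, and HLA-C at 8.81 to 12.4 and 10.1 to 16.1. HLA genes share sequence with each other, and the sources used here do not say how reads that fit several of them were counted.

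The 8 members below the filter were the effectors IFIT1, IFIT2, IFIT3, MX2, RSAD2 and BST2, with IFI44L and the T cell attractant CXCL10. None had over 148 reads or 1.22 scaled RPKM in any library. Their summed reads, not scaled for depth, were 235, 111, 355 and 197 in vehicle 1 to 4. In DMOG 1 to 4 the sums were 82, 212, 67 and 62. By that sum DMOG 1, 3 and 4 lay below every vehicle library and the library labelled DMOG 2 among them. Of the 8 genes, 5 had their highest scaled value in a vehicle library. IFIT1 had its highest, 0.281 scaled RPKM, in DMOG 4 (35 reads). RSAD2 (viperin, which blocks viral replication) had 56, 21, 114 and 69 reads with vehicle and 22, 52, 23 and 15 with DMOG. IFIT3, which binds and stabilizes IFIT1 on viral RNA, had 64, 31, 148 and 35 and then 24, 56, 20 and 3. With no filter, RSAD2 (-0.39, adjusted p = 0.0450) and MX2 (-0.23, adjusted p = 0.0456) were called lower over the 6 libraries, and the other 6 were not. That fit, over more genes than the 11122 that passed the filter, called 1166 genes higher and 1431 lower. BST2, which tethers budding virus, had 0 to 8 reads and IFI44L 0 to 6. CXCL10 had 0 to 10 and overlaps ART3 on the opposite strand. A count of 0 allows up to 3 reads by counting error.

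**Figure D4:**
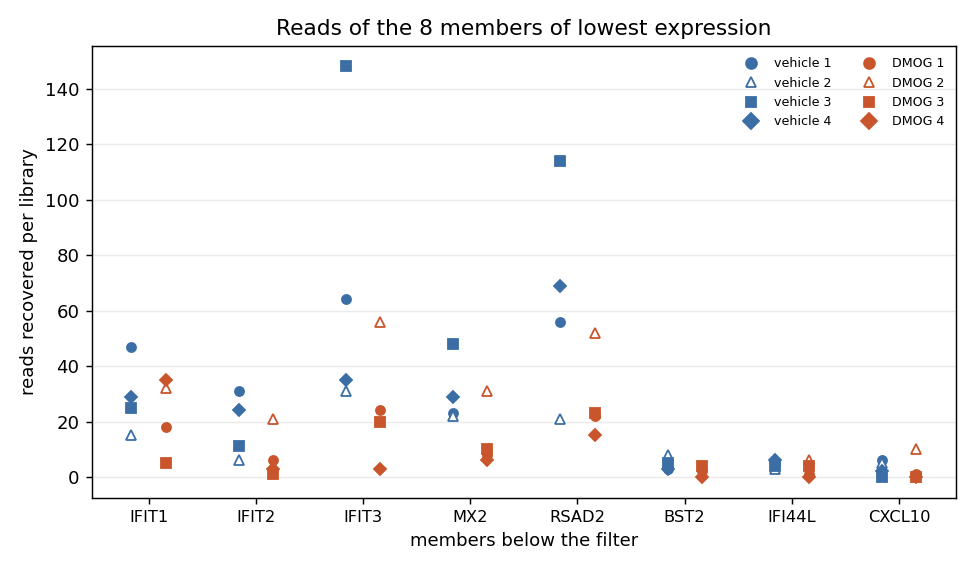
Reads recovered per library for the 8 members below the filter, vehicle in blue and DMOG in orange, replicate 2 open. RSAD2 and IFIT3 reach 114 and 148 reads in vehicle 3, and BST2, IFI44L and CXCL10 have 10 or fewer in every library.

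Many members varied among the vehicle libraries. The ratio of the highest to the lowest vehicle library had a median of 1.77 over the tested members and 1.32 over all genes tested. It was 2 or more for 11 of 26 members, against 10.7% of all genes. Those 11 were MX1, OAS1, OAS2, OAS3, OASL, ISG15, IFITM1, IFITM2, IFITM3, IFI27 and IFI35, and the widest was OAS1 at 3.08. Among the DMOG libraries it was 2 or more for 14 of 26 members, against 27.2% of all genes, and the widest was OAS2 at 7.98. IFI6 with vehicle (1.16) and IRF3 with DMOG (1.12) were the steadiest.

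The same libraries stood at the ends of the range for many members. Vehicle 3 had the highest value of 10 tested members (11.2% of all genes), namely IRF1, IRF7, MX1, OAS1, OAS2, OAS3, ISG15, IFI35, IFI44 and XAF1. DMOG 4 had the lowest value of 10 (27.9% of all genes), 7 of them among those just named (IRF1, MX1, OAS1, OAS2, ISG15, IFI35 and IFI44) beside IFI16, IFITM2 and IFITM3. DMOG 4 had the highest value of 4 tested members (28.8% of all genes), which were the antigen presentation members. The library labelled DMOG 2 had the highest value of 5 (4.1% of all genes), namely IFIH1, IFI16, IFITM3, IFI6 and IFI27. Vehicle 2 had the lowest value of 7 (16.7% of all genes). Vehicle 3 was the deepest library (39931833 reads) and DMOG 4 the shallowest (31245695), and the part of depth was not tested. For 20 of 26 members the library labelled DMOG 2 lay within the vehicle range (72.2% of all genes), against 14, 15 and 8 for DMOG 1, 3 and 4 (30.3%, 36.8% and 22.9%).

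Of the 17 members with the response element core in their promoter window, 11 were tested, with a median 6-library log2 fold change of -0.13 and no call. All 10 without an exact match were tested, with a median of -0.18. They held all 3 calls, 1 higher and 2 lower, against 13.7% and 16.1% of all genes tested. The part of the core in the calls was not tested.

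Other genes of the pathway were taken from 5 lists of 125 genes that hold no member, of which 86 were tested. Over the 6 libraries 9 of the 86 were higher (13.7% of all genes tested) and 14 lower (16.1%), shares below and close to those of genes in general. With the block 14 were higher (19.6%) and 25 lower (21.0%), and over 8 libraries none was called. The median log2 fold change of the 86 was -0.19, and with RPKM as deposited -0.46. No interferon gene passed the filter (10 listed), which a gene at an RPKM of 1 or more in DMOG 1, 3 and 4 alone cannot pass. IFNK, an interferon of keratinocytes, had 13, 3, 5 and 4 reads in vehicle 1 to 4 and 68, 11, 82 and 55 in DMOG 1 to 4, and IFNG had 0 in all 8. In scaled RPKM, IFNK was at most 0.312 with vehicle, at 1.96, 2.41 and 1.83 in DMOG 1, 3 and 4, and at 0.269 in the library labelled DMOG 2. The authors' deposited comparison lists it as higher at its adjusted p under 0.05, with a log2 fold change of 3.61. IFNK is named here after its values were seen.

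Of 16 tested genes of interferon receptors and signalling, 3 rose (IFNLR1, JAK2 and SOCS1), against 13.7% of all genes. In the same list 2 fell, PTPN2 among them, against 16.1%. SOCS1, an inhibitor of Janus kinases, was at 7.63, 6.67, 6.90 and 9.06 scaled RPKM with vehicle and at 28.3, 10.2, 16.4 and 35.3 with DMOG, a 6-library log2 fold change of 1.58 ± 0.26 (adjusted p = 0.00892). All 4 DMOG libraries lay above all vehicle libraries, as for 5.04% of all genes, and the 8-library adjusted p was 0.118 (limma). Of 13 nucleic acid sensing genes, MYD88 rose (13.7% of all genes) and TLR3 and TRAF3 fell (16.1%). TRAF3, an adaptor between sensors and kinases, had an estimate of -0.89 ± 0.15 (adjusted p = 0.00922).

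Among 40 other interferon-stimulated genes, 3 rose (APOL1, ISG20 and TNFSF10), against 13.7% of all genes. In the same list 5 fell (TRIM25, PNPT1, TRIM14, CASP1 and NMI), against 16.1%. APOL1, a lipid-binding protein that lyses trypanosomes, went from 1.87 ± 0.845 to 12.6 ± 4.02 scaled RPKM (SD, n = 3), a log2 fold change of 2.24 ± 0.27 (adjusted p = 0.00481). The ubiquitin ligase TRIM25, which activates RIG-I, went from 30.9 ± 4.59 to 9.38 ± 1.19 (-1.62 ± 0.14, adjusted p = 0.00241). PNPT1, a mitochondrial RNA-degrading enzyme (-1.35 ± 0.28), TRIM14, an adaptor of antiviral signalling (-1.07 ± 0.24), and the inflammatory protease CASP1 (-0.93 ± 0.13) fell as well. For PNPT1 and TRIM14 all 4 DMOG libraries lay below all vehicle libraries, as for 7.33% of all genes. In the library labelled DMOG 2, APOL1 (2.74) and TRIM25 (25.65) lay within their vehicle ranges and CASP1 (12.6) above its own.

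Of 17 other antigen presentation genes, 2 rose, HLA-E among them, against 13.7% of all genes. In the same list 5 fell (TAP2, PSME2, ERAP1, RFX5 and RFXANK), against 16.1%. PSME2, a subunit of the proteasome activator, went from 22.9 ± 3.02 to 11.1 ± 2.85 scaled RPKM (SD, n = 3, log2 fold change -1.0 ± 0.19, adjusted p = 0.0115). In the library labelled DMOG 2 it was at 24.4, within the vehicle range. RFX5, a DNA-binding factor of HLA promoters, had an estimate of -1.02 ± 0.31 (adjusted p = 0.0446). HLA-E, a class I heavy chain with little variation between people (0.66 ± 0.12, adjusted p = 0.0120), is given beside HLA-B and HLA-C after its values were seen. It was at 11.1, 14.7, 13.1 and 9.81 with vehicle and 19.2, 12.4, 17.4 and 18.7 with DMOG, so the library labelled DMOG 2 again lay among the vehicle values. Per each of its 7 listed positions, HLA-E was at 68.7 to 103 with vehicle and 86.7 to 134 with DMOG. The log2(scaled RPKM + 1) scale understates changes of HLA-B and HLA-C more than those of HLA-E, which lay at higher levels. By limma-voom the 6-library estimates were 0.71 for HLA-B and 0.45 for HLA-C. The authors' deposited comparison gives 0.72 for HLA-B, 0.45 for HLA-C and 0.70 for HLA-E, so the sizes are not ranked here. PSMB8 and PSMB9, immunoproteasome subunits with several listed positions, did not pass the filter.

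**Figure D5:**
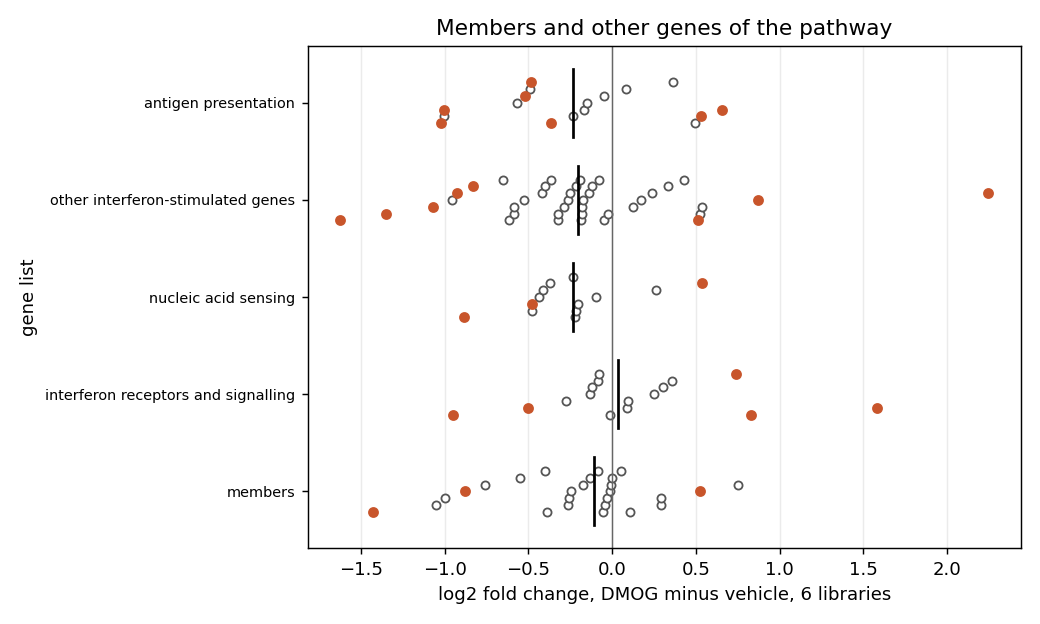
Log2 fold change over the 6 libraries (horizontal axis) for the 26 tested members and the tested genes of 4 other lists (rows), with called genes filled and the median of each list as a bar. Each row has called genes on both sides of 0, and the medians lie between -0.23 and 0.04.

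The comparison deposited by the authors lists 31 of the 34 members. In the authors' deposited table HLA-B and HLA-C, 2 members, were higher at its adjusted p under 0.05, against 18.8% of its genes. Lower in the authors' deposited table were 7 members, IFI16, XAF1, RSAD2, MX2, IFIT3, IFIT2 and OAS2, against 17.6% of its genes. The authors' deposited table gives log2 fold changes of -1.47 for IFI16, -1.61 for XAF1 and 0.72 for HLA-B. That table rests on the same 6 libraries as the comparison above and is no independent evidence.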

How the data were processed

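RNA of EPC2-hTERT air-liquid interface cultures was sequenced in 8 libraries, 4 per group, and groups and replicate numbers were taken from the labels. The authors deposited RPKM values, though the table's name says raw counts. Tools named in the submitters' processing notes, with no order, include HTSeq 0.6.1, TopHat2 2.0.13 with Bowtie2 2.2.3.0, Picard 1.129 and SAMtools 1.3.1, and both hg19 and hg38 are named. Gene positions are those of hg19 in the deposited table. Reads recovered from RPKM, length and library depth were whole within 0.01 reads for 100% of values. The authors' deposited comparison holds, per the file headers, normalized group means (a signal scale), a fold (ratio), a log2 fold change and p-values, raw and adjusted. Its group means were recovered from replicates 1, 3 and 4 of each group to a median relative misfit of 8.3e-07 or less.

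RPKM were divided by median-ratio factors and fitted as log2(value + 1) by limma-trend with robust empirical Bayes (limma 3.58.1, R 4.3.3), two-sided, with a threshold of 0.05. The script was tested on simulated data. Means and SD are of scaled RPKM. Alternatives were the RPKM as deposited, upper-quartile factors, a pseudocount of 0.1, no filter, limma-voom on recovered reads, the replicate number as a block and each library left out. Adding vehicle 2 to the 6 libraries was chosen after seeing the data. Same-numbered libraries' deviations from their group means correlated at 0.466, 0.397 and 0.341 over the 6 libraries for numbers 1, 3 and 4, and at 0.073, -0.02, 0.529 and 0.238 over 8 for numbers 1 to 4. The pairing over 6 libraries therefore comes from the values, not from the labels.

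Members, lists and tests were chosen with earlier results of these data known. The rule gave values in every library for members called over 6 libraries, members whose groups did not overlap over 8 (none), the 3 of highest mean and the IFITM genes, and named the 10 called pathway genes of largest change. Some pathway and marker genes are not reported here. IRF9, OAS1, OAS2, OASL, MX1, IFI35, HLA-C, RSAD2 and IFIT3 were added after their values were seen, as were the motif ACGTG and the runs shared by HLA-B and HLA-C. Promoter sequences are from RefSeq (GRCh38.p14). Protein sequences were not used here.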

Additional observations from a re-analysis of the deposited data

Results flagged for a closer look

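In 4 of 68 groups of 4 libraries, 1 library lay far from the other 3 by Dixon's test, where chance flags about 1 in 20 groups. DDX58 was at 1.72 scaled RPKM in vehicle 2 and at 1.18 to 1.26 in the other vehicle libraries. MX2 was at 0.292 in the library labelled DMOG 2 and at 0.0770 to 0.113 in the other DMOG libraries. CXCL10 was at 0.229 in the library labelled DMOG 2 and at 0 to 0.0270 in the others, from 10 reads against 0 or 1. IFI6 was at 2.06 in DMOG 3 and at 3.70 to 3.89 in the others.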

How the results depend on the processing

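Of 380 estimates for single genes under alternatives, 326 remained on the same side of 0 and of the threshold, 33 lost their call, 16 gained a call and 5 changed sign. The 5 were B2M (-0.198) and IFITM1 (-0.189) with RPKM as deposited, and IFITM1 without vehicle 3 (-0.135), without DMOG 4 (-0.0733) and with vehicle 2 added (-0.113), while it reached 0.284 without vehicle 1. IFI16 and XAF1 were called lower under every 6-library alternative run. With RPKM as deposited, 682 genes were higher and 3836 lower over 6 libraries, with 0 members higher and 5 lower (IFIH1, OAS2 and IFI35 beside IFI16 and XAF1) and 5 other pathway genes higher and 34 lower. With no filter, 1166 genes were higher and 1431 lower over 6 libraries. In that fit 0 members were higher, and IFI16, XAF1, RSAD2 and MX2 were lower. Of the other pathway genes 5 were higher and 9 lower. With the replicate number as a block, 2 members were higher and 8 lower, and 14 other pathway genes were higher and 25 lower. The cause of these shifts was not tested.

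Leaving out 1 of the 6 libraries at a time gave 379 (without vehicle 1) to 2224 (without DMOG 3) genes higher and 539 to 2527 lower, with 0 to 1 members higher and 2 to 5 lower, and 2 to 10 other pathway genes higher and 4 to 24 lower. All genes called higher also numbered 466 without vehicle 4, 486 without DMOG 1 and 864 without vehicle 3. Leaving out 1 of the 8 gave 0 calls of any kind, except without the library labelled DMOG 2, where 1724 genes were higher and 1970 lower, with 1 member higher and 2 lower, and 11 other pathway genes higher and 14 lower. Under the other 8-library alternatives, limma-voom and the replicate block included, 0 genes were called. Low reads limit the 8 members below the filter and, at 50 to 106 reads with DMOG in replicates 1, 3 and 4, XAF1.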
